A study of Arabidopsis thaliana with 9 samples.

Results

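The 52 loci described here are the nucleolar ribosome biogenesis factors of Arabidopsis thaliana: nucleolins, fibrillarins, the core proteins of small nucleolar ribonucleoproteins (snoRNPs), processome and large-subunit assembly factors, RNA helicases, methyltransferases, exonucleases, export factors and the nucleolar HD2 histone deacetylases. They are 52 of the 37336 loci in the count table. All 52 were present in it, and all 52 passed the filter on low counts that left 21092 loci for testing. The loci were chosen by name as a list of ribosome assembly genes while earlier ABA and mock values of these same libraries were in view. Their differences between ABA and mock are therefore given as a description, and neither their number nor their median was tested.

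RNA was sequenced from whole seedlings of the wild-type accession Col-0. Seedlings were transferred 3 days after germination to MS medium (Murashige and Skoog; 3 ml, liquid) and grown for 7 days at 22 °C under 16 h of light and 8 h of dark. In the ABA group (3 libraries) the medium was then renewed with 10 µM abscisic acid, a plant hormone best known from drought and from dormant seeds, and in the mock group (3 libraries) with 0.1% DMSO, the solvent. All material was collected after 3 h, and the replicates are labelled as independent biological ones. The labels state a DMSO content for mock only. A further group, treated with a compound named iCB, was not analysed here. The comparison asks how the mRNA levels of these genes stood after ABA relative to mock.

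Ribosomes are assembled mainly in the nucleolus, where RNA polymerase I makes a long precursor of the ribosomal RNAs (rRNAs). Box C/D and H/ACA snoRNPs methylate and pseudouridylate that precursor, the small-subunit processome folds and cleaves it, and helicases, methyltransferases, GTPases and the exosome carry the subunits towards export. In plants the genes of these factors are most active in dividing and growing cells, and mutants in many of them have slow embryo sac development, pointed leaves or arrested embryos.

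The 6 libraries held 21585450 to 22722904 counts each, so depth was nearly equal. Levels are counts relative to library size (CPM), after scaling by the trimmed mean of M values (TMM), and levels of different genes are compared only as CPM per kb of exon. Known ABA-induced genes separated the groups: RAB18 (AT5G66400), a dehydrin, had 1086, 1289 and 1231 CPM in the ABA libraries, against 1.20, 2.60 and 2.95 CPM in the mock libraries, and RD29A (AT5G52310), a desiccation-responsive gene, was higher by 5.50 ± 0.37 on the log2 scale (SE). The lowest count of any of the 52 loci in any library was 99. In whole seedlings, fewer cells of a type and less RNA per cell cannot be told apart. Photosynthetic marker genes of the shoot (RBCS1A, CAB2 and RCA) and marker genes of the root (PYK10, CASP1 and EXPA7) were detected in all libraries. None of these 6 was called different by edgeR's quasi-likelihood test, 0 had an unadjusted p below 0.05, and DESeq2 and limma-voom called 0. With library totals 2 of the shoot and 1 of the root genes were called lower in ABA. Upper-quartile factors called 1 shoot gene and 1 root gene. The shoot genes summed to 10551, 13049 and 11514 CPM in ABA, against 12124, 13374 and 11943 CPM in mock. The root genes summed to 3378, 3147 and 3458 CPM in ABA, against 3597, 4452 and 3389 CPM in mock, so both sums overlapped. RBCS1A was the largest part of the shoot sums. PYK10 was nearly all of the root sums, at 3330, 3099 and 3409 CPM in ABA, against 3551, 4390 and 3349 CPM in mock.

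After ABA, 50 of the 52 genes were lower and 2 were higher at a Benjamini-Hochberg adjusted p below 0.05 in edgeR's quasi-likelihood fit over all tested loci; 1 was higher when libraries were scaled to their totals. Among all tested loci 29.4% were lower and 31.0% were higher. The median log2 fold change (ABA minus mock) of the 52 was -1.01, which is a level 2.02-fold higher in mock, and that of all tested loci was -0.01; the loci called lower had a median of -0.66. All 52 had ABA and mock libraries that did not overlap, as had 67.9% of all tested loci. Falls of at least 1 on the log2 scale were found in 27 of the genes, falls of 0.5 to 1 in 19, and falls under 0.5 in 4. Of all tested loci, 9.23% fell by at least 1. With libraries scaled to their total counts all log2 fold changes moved by -0.23 and the median of the 52 was -1.24, so the sizes below are relative to the TMM scaling.

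The 52 genes together took 0.302%, 0.263% and 0.262% of all counts in the ABA libraries, against 0.666%, 0.607% and 0.650% in the mock libraries. These shares are taken from the counts as deposited, so they follow the scaling to library totals and not TMM. Every ABA share lay under every mock share, and that of ABA replicate 1 stood above the other two of its group. ABA replicate 1 was the highest of its group in 44 of the 52 genes, and mock replicate 2 was the lowest of its group in 44. Most genes of the list thus had the same highest ABA library and the same lowest mock library. The same counts were not made over all tested loci, so this may not be particular to the list. Their coefficient of variation had a median of 8.42% in ABA and 5.97% in mock, and the 13062 loci with a mean of at least 10 CPM had medians of 5.79% in ABA and 6.30% in mock. Leaving out ABA replicate 1 gave a median log2 fold change of -1.10.

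**Figure D1:**
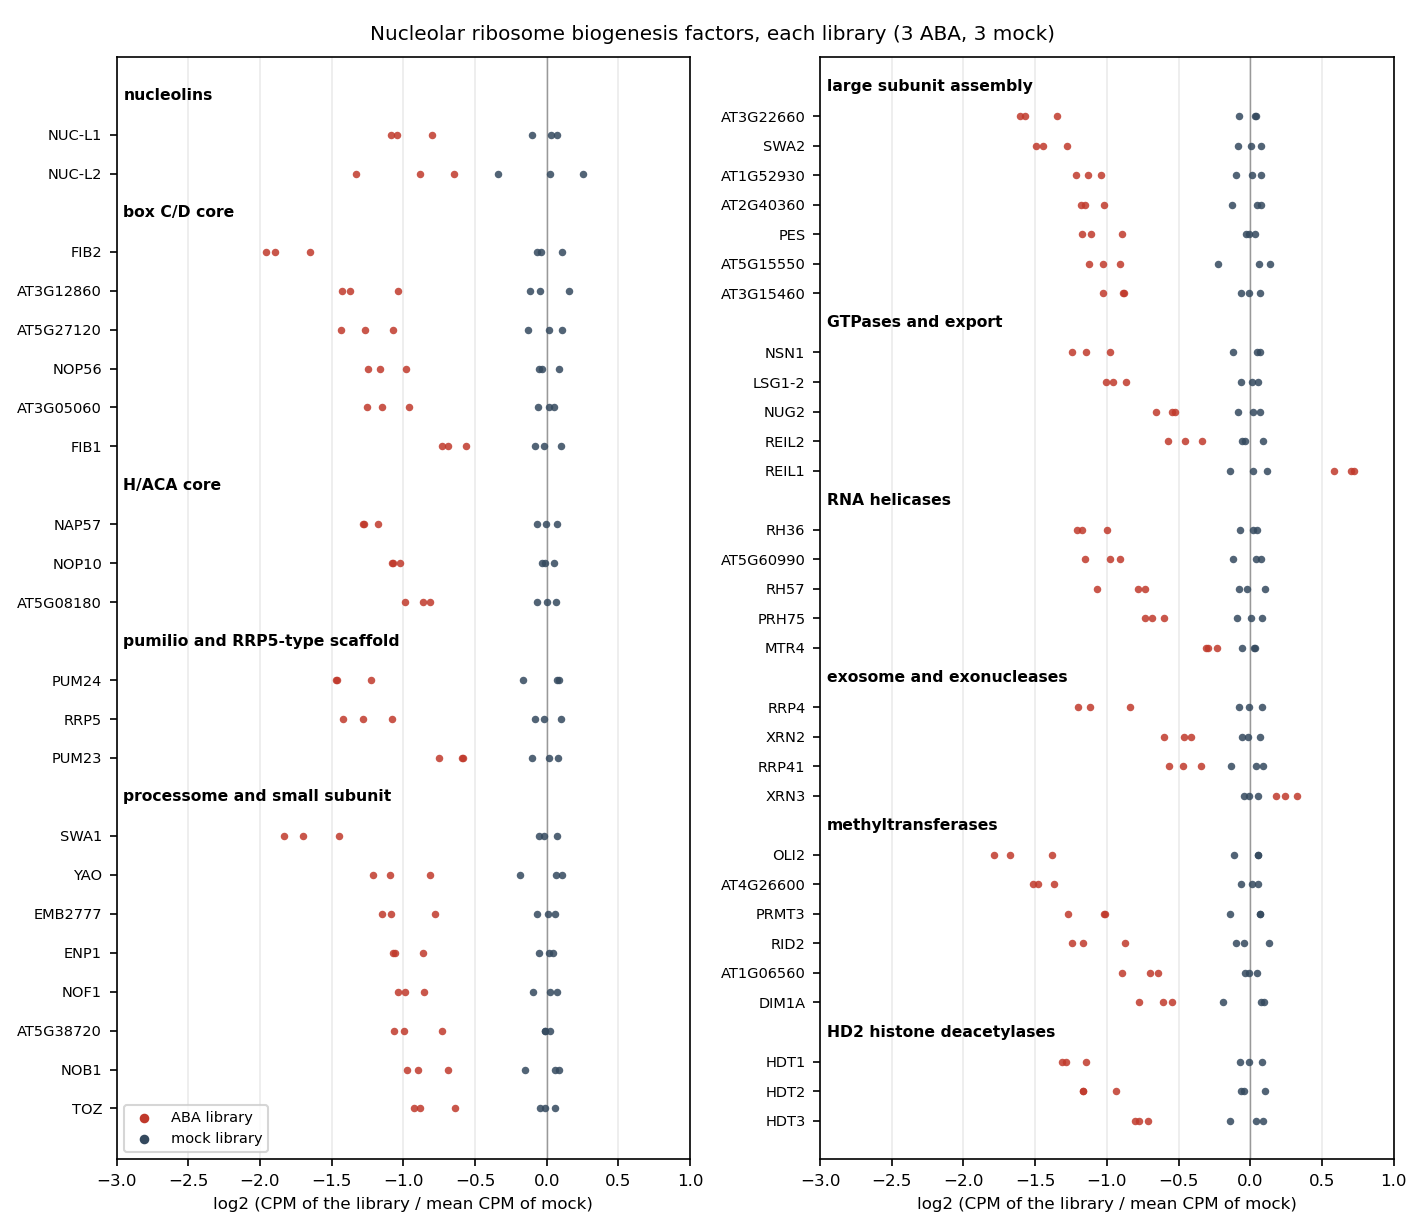
Each of the 52 genes in every library, as log2 of its CPM over the gene's mean CPM in the 3 mock libraries; genes are grouped by role and ordered by fold change within a role. The ABA points (red) lie left of the mock points (dark blue) for 50 genes and right of them for REIL1 and XRN3, with no overlap between the groups in any gene.

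The promoters of these genes were read from the RefSeq annotation of TAIR10.1, as 250 bases before to 50 bases after the annotated start of each gene. The elements sought are those long known from plant genes of the ribosome and nucleolus: the telo-box, whose letters AAACCCTA repeat the plant telomere, and site II, whose letters TGGGCC or TGGGCT are the binding sites of TCP transcription factors. Both strands were searched, and the telo-box core AAACCCT is contained in the telo-box. The core was found in 27 of the 52 windows (51.9%), against 9.28% of 20184 tested protein-coding loci. Site II was found in 37 windows (71.2%), against 24.9% of the tested loci, and both elements in 22 (42.3%), against 3.41%. At least 2 site II matches stood in 32 of the windows (61.5%), against 16.5% of the tested loci. ACGTG, the core of the ABA-responsive element (ABRE), was found in 10 windows (19.2%), against 28.4% of the tested loci. The longer ACGTGGC, which contains that core, was found in 0 of 52 and in 4.81% of the tested loci. These shares describe letters in a window and carry no test.

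The arrangement of the elements is shown for 5 promoters. NOP56, AT5G27120 and NUG2 hold both elements close to the start, and REIL2 and REIL1 are paralogues that moved in opposite directions. Each line gives the 200 bases before the annotated start, 5′ to 3′ on the gene's strand, with telo-box cores and site II matches of either strand in capitals; a match on the opposite strand reads as the reverse complement. The positions, in RefSeq TAIR10.1, are chr1:20986953-20987152 on the minus strand for NOP56, chr5:9540661-9540860 on the plus strand for AT5G27120, chr1:19737205-19737404 on the plus strand for NUG2, chr2:10402935-10403134 on the minus strand for REIL2 and chr4:15248059-15248258 on the minus strand for REIL1.
NOP56: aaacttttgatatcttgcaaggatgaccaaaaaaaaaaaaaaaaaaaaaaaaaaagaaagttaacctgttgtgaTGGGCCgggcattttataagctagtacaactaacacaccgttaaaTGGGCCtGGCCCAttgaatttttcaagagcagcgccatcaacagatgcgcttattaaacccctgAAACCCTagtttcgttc
AT5G27120: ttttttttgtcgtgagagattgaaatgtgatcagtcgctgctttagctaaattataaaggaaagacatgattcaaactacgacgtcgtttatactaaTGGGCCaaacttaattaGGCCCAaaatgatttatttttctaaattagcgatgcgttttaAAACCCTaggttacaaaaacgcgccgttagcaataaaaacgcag
NUG2: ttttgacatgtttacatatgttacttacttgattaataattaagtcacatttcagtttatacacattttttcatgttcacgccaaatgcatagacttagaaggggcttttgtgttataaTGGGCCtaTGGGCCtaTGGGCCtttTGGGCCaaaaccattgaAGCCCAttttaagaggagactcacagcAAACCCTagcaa
REIL2: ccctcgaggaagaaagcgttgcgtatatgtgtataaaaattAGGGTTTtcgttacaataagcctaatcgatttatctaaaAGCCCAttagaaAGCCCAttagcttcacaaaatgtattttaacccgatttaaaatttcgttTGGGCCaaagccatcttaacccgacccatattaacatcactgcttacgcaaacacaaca
REIL1: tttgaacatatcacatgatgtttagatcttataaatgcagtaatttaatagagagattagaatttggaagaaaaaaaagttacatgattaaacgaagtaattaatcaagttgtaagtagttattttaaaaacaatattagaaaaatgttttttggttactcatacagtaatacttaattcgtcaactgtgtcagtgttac
In NOP56 3 site II matches precede a telo-box core that begins 17 bases before the start, and a further core lies after the start. NUG2 has 5 site II matches between 81 and 39 bases before the start and a core at 12 bases before it. In REIL2 the order is reversed, with the core farthest upstream, at 159 bases before the start, and 3 site II matches after it. REIL1 has no capitals, since its 2 site II matches begin 17 and 26 bases after the start.

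The telo-box core nearest to the start began after the start in 17 of the 27 genes that have one. Its position ranged from 159 bases before to 43 bases after the start. The window ends 50 bases after the start and only the nearest core was taken, which limits these positions. Positions in other tested loci were not read. A shorter window, of the 150 bases before the start alone, held a core in 17.3% of the genes, against 4.02% of the tested loci. The median log2 fold change was -1.03 in the 27 genes with a telo-box core and -0.94 in the 25 without one. Neither REIL1 nor XRN3, the 2 genes that rose, has a telo-box core in its window, and each has 2 site II matches. Of the 7 genes that fell most, FIB2 has 2 cores and no site II match, SWA1 has both elements, and OLI2 has 3 site II matches and no core. AT3G22660 has a core alone, AT4G26600 and SWA2 have site II matches alone, and PUM24 has neither. In all, 10 genes have neither element.

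**Figure D2:**
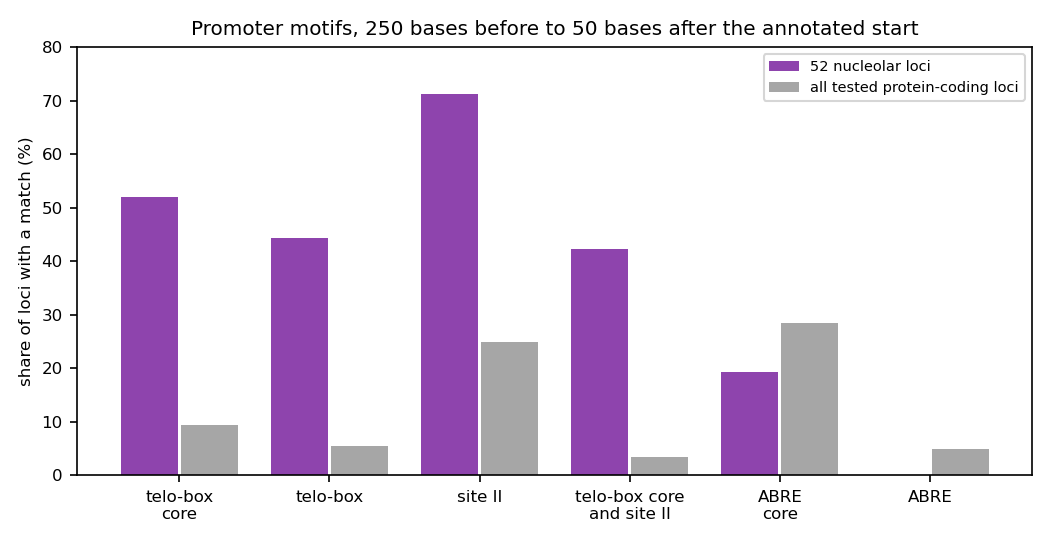
Share of loci (%) with a match on either strand within 250 bases before to 50 bases after the annotated start, for the 52 nucleolar loci (purple) and for 20184 tested protein-coding loci (grey). The purple bar stands at 51.9% for the telo-box core and 71.2% for site II, against 9.28% and 24.9% in grey, and at 19.2% for the ABRE core, against 28.4% in grey.

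Nucleolin binds the rRNA precursor and rDNA chromatin. NUC-L1 (AT1G48920), the main nucleolin gene of the plant, had 622, 525 and 510.2 CPM in the ABA libraries, against 1136, 1007 and 1102 CPM in the mock libraries. It fell by 0.97 ± 0.095 on the log2 scale (SE), and every ABA library was below every mock library. At 264 ± 28.9 CPM per kb in ABA and 518 ± 32.1 CPM per kb in mock (SD, n = 3 each) it was the highest of the 52 genes per length in both groups. Its share of the counts of the 52 genes was 19.1%, 18.1% and 18.1% in ABA, against 18.4%, 18.0% and 18.3% in mock, so it took about the same share in both groups. NUC-L2 (AT3G18610), its paralogue, was the lowest of the 52 per length, at 2.76 ± 0.638 CPM per kb in ABA and 5.24 ± 1.07 CPM per kb in mock. It had 7.54, 6.41 and 4.69 CPM in the ABA libraries, against 14.1, 12.0 and 9.31 CPM in the mock libraries, and its spread within each group was the widest of the list on the log2 scale.

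Box C/D snoRNPs place 2′-O-methyl groups on rRNA, guided by snoRNAs; fibrillarin is their methyltransferase and NOP56 and NOP58 are their scaffold. All 6 genes of this core fell, with a median log2 fold change of -1.19. FIB2 (AT4G25630) fell more than any other of the 52 genes: it had 64.0, 54.0 and 51.7 CPM in the ABA libraries, against 216, 191 and 195 CPM in the mock libraries, a log2 fold change of -1.83 ± 0.094 (SE). Every ABA library stood under every mock library, and mock was 3.55-fold higher on average. Its paralogue FIB1 (AT5G52470) had 155, 142 and 139 CPM in the ABA libraries, against 245, 216 and 227 CPM in the mock libraries, and fell by 0.66 ± 0.073. NOP56 (AT1G56110) had 164, 144 and 136 CPM in the ABA libraries, against 343, 312 and 316 CPM in the mock libraries, a fall of 1.13 ± 0.083. The second NOP56-like gene, AT3G12860, was a low copy of the pair, at 3.21 ± 0.486 CPM per kb in ABA and 7.75 ± 0.775 CPM per kb in mock, and fell by 1.27 ± 0.13. The NOP58-like genes AT5G27120 and AT3G05060 fell by 1.25 ± 0.10 and 1.12 ± 0.083. Introns of the fibrillarin genes host box C/D snoRNAs, whose reads this mRNA assay was not made to count.

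H/ACA snoRNPs turn uridines of rRNA into pseudouridine. NAP57 (AT3G57150), the plant dyskerin and the catalytic subunit, had 123, 114 and 115 CPM in the ABA libraries, against 292, 265 and 276 CPM in the mock libraries, and fell by 1.24 ± 0.066. The 3 ABA values were within a narrow range, and all lay under the mock values. NOP10 (AT2G20490), a small subunit that binds dyskerin, fell by 1.06 ± 0.059, with 30.6, 30.7 and 31.8 CPM in ABA and 66.9, 63.0 and 63.9 CPM in mock. The NHP2-like gene AT5G08180, of the L7Ae family that binds the guide RNA, fell by 0.89 ± 0.069. The 3 genes of this core thus fell by 0.89 to 1.24 on the log2 scale.

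The pumilio-repeat proteins PUM23 and PUM24 bind rRNA precursors in the nucleolus, and RRP5 is known in yeast as a scaffold that both subunits need. PUM24 (AT3G16810) had 25.8, 21.7 and 21.8 CPM in the ABA libraries, against 63.1, 53.5 and 63.8 CPM in the mock libraries, and fell by 1.38 ± 0.097. RRP5 (AT3G11964) fell by 1.26 ± 0.094. PUM23 (AT1G72320) fell by 0.64 ± 0.076. Its level per length was 7.32 ± 0.467 CPM per kb in ABA and 11.4 ± 0.709 CPM per kb in mock, against 10.2 ± 1.02 CPM per kb in ABA and 26.6 ± 2.54 CPM per kb in mock for PUM24.

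The small-subunit processome assembles on the 5′ part of the precursor and releases the 18S rRNA. Its 8 genes in the list all fell, with a median of -0.98 and a range of -1.65 to -0.81. SWA1 (AT2G47990), a WD40 protein needed for mitoses of the female gametophyte, fell most: it had 23.6, 19.8 and 18.0 CPM in the ABA libraries, against 63.3, 62.0 and 67.6 CPM in the mock libraries, a fall of 1.65 ± 0.098. YAO (AT4G05410) and TOZ (AT5G16750), WD40 proteins needed for embryo development, fell by 1.03 ± 0.12 and 0.81 ± 0.084. EMB2777 (AT2G43650), of the Sas10 family of U3 snoRNP proteins, fell by 1.00 ± 0.098. NOF1 (AT1G17690) and ENP1 (AT1G31660), a nucleolar U3-associated protein and the bystin homologue, fell by 0.96 ± 0.076 and 0.99 ± 0.073. NOB1 (AT5G41190), the nuclease family that cuts the 3′ end of 18S rRNA, had 38.9, 33.6 and 31.9 CPM in the ABA libraries, against 65.1, 56.4 and 66.3 CPM in the mock libraries, a fall of 0.85 ± 0.094. The RRP7-like gene AT5G38720 fell by 0.92 ± 0.091. Apart from SWA1, these genes fell within a range of 0.81 to 1.03 on the log2 scale.

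The 7 large-subunit assembly genes fell as well, with a median of -1.12. Pescadillo, BOP1 and WDR12 form the PeBoW complex of animals, which processes the precursor of the large-subunit rRNAs. The pescadillo gene PES (AT5G14520) had 69.6, 59.95 and 57.5 CPM in the ABA libraries, against 132.6, 127 and 129 CPM in the mock libraries, and fell by 1.06 ± 0.079. AT2G40360, which encodes a BOP1 N-terminal domain, fell by 1.12 ± 0.077, and AT5G15550, a nucleolar WD40 protein listed with that complex, fell by 1.02 ± 0.10. The 3 falls lay between 1.02 and 1.12 on the log2 scale. AT3G22660, an rRNA processing protein, fell most of the large-subunit genes, with 32.6, 27.9 and 27.2 CPM in the ABA libraries, against 84.9, 78.3 and 85.3 CPM in the mock libraries, a fall of 1.50 ± 0.083. SWA2 (AT1G72440), a homologue of yeast NOC1, fell by 1.40 ± 0.077. The Brix-domain genes AT1G52930 and AT3G15460 fell by 1.13 ± 0.073 and 0.93 ± 0.081.

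The GTPases and late factors of the large subunit were mixed, with 4 genes lower, 1 higher and a median of -0.58. NSN1 (AT3G07050), the plant nucleostemin, fell by 1.12 ± 0.085, and LSG1-2 (AT1G08410), a cytoplasmic GTPase of late 60S maturation, by 0.94 ± 0.069. NUG2 (AT1G52980), a nuclear GTPase whose promoter is printed above, had 82.5, 83.4 and 76.2 CPM in the ABA libraries, against 126, 113 and 122 CPM in the mock libraries, and fell by 0.58 ± 0.067. The REIL proteins are the plant counterparts of yeast Rei1, which recycles an export factor of the 60S subunit in the cytoplasm, and are known for growth in the cold. REIL1 (AT4G31420) had 51.5, 46.8 and 50.9 CPM in the ABA libraries, against 31.6, 28.2 and 33.7 CPM in the mock libraries. It rose by 0.67 ± 0.080, and every ABA library was above every mock library; with library totals the rise was 0.44. REIL2 (AT2G24500) had 55.2, 46.8 and 51.0 CPM in the ABA libraries, against 67.2, 68.0 and 74.4 CPM in the mock libraries, and fell by 0.45 ± 0.077. Exons of REIL1 overlap those of AT4G31410 on the opposite strand. Exons of REIL2, NSN1 and the helicase gene RH57, described below, overlap a neighbour on the same strand. How reads in these overlaps were counted is not given in the sources used here.

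RNA helicases unwind the precursor and its snoRNA duplexes, and all 5 in the list fell. RH36 (AT1G16280), also needed in the female gametophyte, fell by 1.12 ± 0.083, the DEAD-box gene AT5G60990 by 1.01 ± 0.085, and RH57 (AT3G09720) by 0.85 ± 0.10. PRH75 (AT5G62190) had 161, 147 and 152 CPM in the ABA libraries, against 259, 229 and 246 CPM in the mock libraries, and fell by 0.67 ± 0.070. MTR4 (AT1G59760), which feeds rRNA precursors to the nuclear exosome, had 37.5, 35.5 and 35.8 CPM in the ABA libraries, against 45.0, 42.3 and 44.9 CPM in the mock libraries. Its fall, 0.28 ± 0.060, was the smallest of the 50, and the highest ABA library was still below the lowest mock library.

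The exonucleases trim precursors and degrade spacers, and their 4 genes had a median log2 fold change of -0.47. RRP4 (AT1G03360), a cap subunit of the exosome, had 13.8, 10.8 and 11.4 CPM in the ABA libraries, against 24.5, 23.4 and 26.2 CPM in the mock libraries, and fell by 1.04 ± 0.10. RRP41 (AT3G61620), a ring subunit, fell by 0.46 ± 0.092. XRN2 (AT5G42540) and XRN3 (AT1G75660) are nuclear 5′-3′ exonucleases. XRN2 had 55.7, 53.9 and 48.8 CPM in the ABA libraries, against 73.5, 71.2 and 77.8 CPM in the mock libraries, and fell by 0.49 ± 0.070. XRN3 had 90.0, 95.5 and 86.3 CPM in the ABA libraries, against 79.0, 73.7 and 75.6 CPM in the mock libraries, and rose by 0.25 ± 0.063 (edgeR adjusted p = 0.00762). The rise of XRN3 rested on the scaling: its log2 fold change was 0.022 with library totals (adjusted p = 0.757) and 0.044 with upper-quartile factors (adjusted p = 0.552).

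All 6 methyltransferase genes fell, with a median of -1.09. OLI2 (AT5G55920), a homologue of yeast Nop2, which methylates a cytosine of the large-subunit rRNA, had 72.3, 59.1 and 54.7 CPM in the ABA libraries, against 196, 174 and 196 CPM in the mock libraries, a fall of 1.61 ± 0.11. The second Nop2-like gene, AT4G26600, fell by 1.45 ± 0.068, and the more distant NOL1/NOP2/sun gene AT1G06560 by 0.74 ± 0.080. DIM1A (AT2G47420), the dimethylase of 18S rRNA, fell by 0.64 ± 0.095. RID2 (AT5G57280), whose mutants fail in callus and root growth at high temperature, fell by 1.09 ± 0.11. PRMT3 (AT3G12270), a protein arginine methyltransferase, fell by 1.09 ± 0.093. In OLI2, whose fall came next to those of FIB2 and SWA1 in size, the highest ABA library stood well under the lowest mock library.

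The HD2 histone deacetylases are a plant-specific class that sits in the nucleolus, where HDT1 is known from rRNA gene silencing. HDT1 (AT3G44750) had 80.4, 73.1 and 71.7 CPM in the ABA libraries, against 188, 169 and 177 CPM in the mock libraries, and fell by 1.25 ± 0.071. HDT2 (AT5G22650), the next highest of the 52 genes per length after NUC-L1, had 186, 159 and 159 CPM in the ABA libraries, against 383, 346 and 341 CPM in the mock libraries, and fell by 1.09 ± 0.085. HDT3 (AT5G03740) had 44.8, 42.9 and 42.1 CPM in the ABA libraries, against 75.7, 66.7 and 78.3 CPM in the mock libraries, and fell by 0.77 ± 0.074. All 3 genes were lower in every ABA library than in every mock library, and 67.9% of all tested loci had groups without overlap. Exons of HDT1 and HDT2, like those of 13 other genes of the list, overlap exons of the opposite strand; the library kit marks strand, but the strand setting of the counting is not given in the sources used here.

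Levels per length spanned a wide range. The median gene stood at 16.6 CPM per kb in ABA and 31.3 CPM per kb in mock. Across the 52 genes, Pearson's r of the log2 mock level per kb with the log2 fold change was -0.27, a description over genes that share libraries and a term of the ratio. FIB1 had 105 ± 6.23 CPM per kb in ABA and 166 ± 10.7 CPM per kb in mock (SD, n = 3 each). NOP56 had 78.0 ± 7.42 CPM per kb in ABA and 170.5 ± 9.10 CPM per kb in mock, and FIB2 had 42.2 ± 4.87 CPM per kb in ABA and 149.8 ± 10.1 CPM per kb in mock. After ABA FIB1 stood above NOP56 and NOP56 above FIB2 by more than their SDs, whereas in mock FIB1 and NOP56 differed by less than theirs. REIL1 and XRN3 stood above the median gene in ABA and below it in mock.

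**Figure D3:**
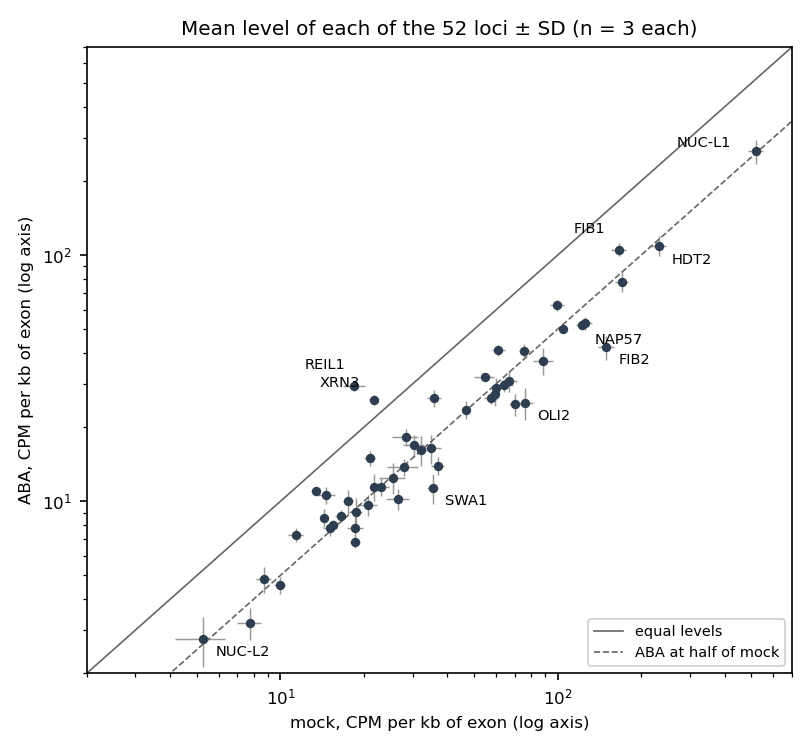
Mean level of each gene in CPM per kb of exon, ABA on the vertical and mock on the horizontal axis (both log axes), with SD over 3 libraries; the solid line marks equal levels and the dashed line a mock level that is double the ABA level. Most points lie along the dashed line from NUC-L2 at 5.24 to NUC-L1 at 518 CPM per kb in mock; REIL1 and XRN3 lie above the solid line and FIB2 lies below the dashed one.

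Paralogues could be compared within each library, as the log2 ratio of their CPM per kb, which does not depend on how libraries are scaled. With 3 libraries against 3 an exact permutation test cannot go below 0.10, so the ratios are given without a p. The ratio of FIB2 to FIB1 was -1.23, -1.35 and -1.38 in ABA, against -0.14, -0.14 and -0.18 in mock. In ABA the pair held far less FIB2 than FIB1, and in mock it was near balance, a difference of -1.17 ± 0.047 (SE). The ratio of REIL1 to REIL2 was 0.11, 0.21 and 0.20 in ABA, against -0.88, -1.06 and -0.93 in mock, a difference of 1.13 ± 0.063. REIL1 was the higher gene in every ABA library and REIL2 in every mock library. The ratio of XRN3 to XRN2 was 0.70, 0.83 and 0.83 in ABA, against 0.11, 0.058 and -0.033 in mock, a difference of 0.74 ± 0.061. XRN3 was the higher gene in every ABA library, and the 2 genes were nearly level in mock.

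In the other families the balance moved less. HDT1 lost ground to HDT3, with ratios of 0.72 ± 0.044 in ABA and 1.20 ± 0.087 in mock (SD, n = 3 each), as did HDT2, with 1.76 ± 0.088 in ABA and 2.09 ± 0.14 in mock. The ratio of HDT1 to HDT2 differed by -0.16 ± 0.039, that of the NOP58-like genes AT5G27120 and AT3G05060 by -0.13 ± 0.041, and that of the Brix-domain genes AT3G15460 and AT1G52930 by 0.20 ± 0.067. In all these families the ABA ratios did not overlap the mock ratios. How often this holds for other pairs of genes was not counted, and 67.9% of single tested loci had groups without overlap. The ratios overlapped for 3 pairs: NUC-L2 to NUC-L1 (-6.58 ± 0.23 in ABA and -6.63 ± 0.30 in mock), AT3G12860 to NOP56 (-4.58 ± 0.10 in ABA and -4.45 ± 0.076 in mock) and OLI2 to AT4G26600 (1.87 ± 0.15 in ABA and 2.03 ± 0.046 in mock). How reads that match both paralogues were counted is not given in the sources used here, and ratios of close copies are uncertain to that extent.

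**Figure D4:**
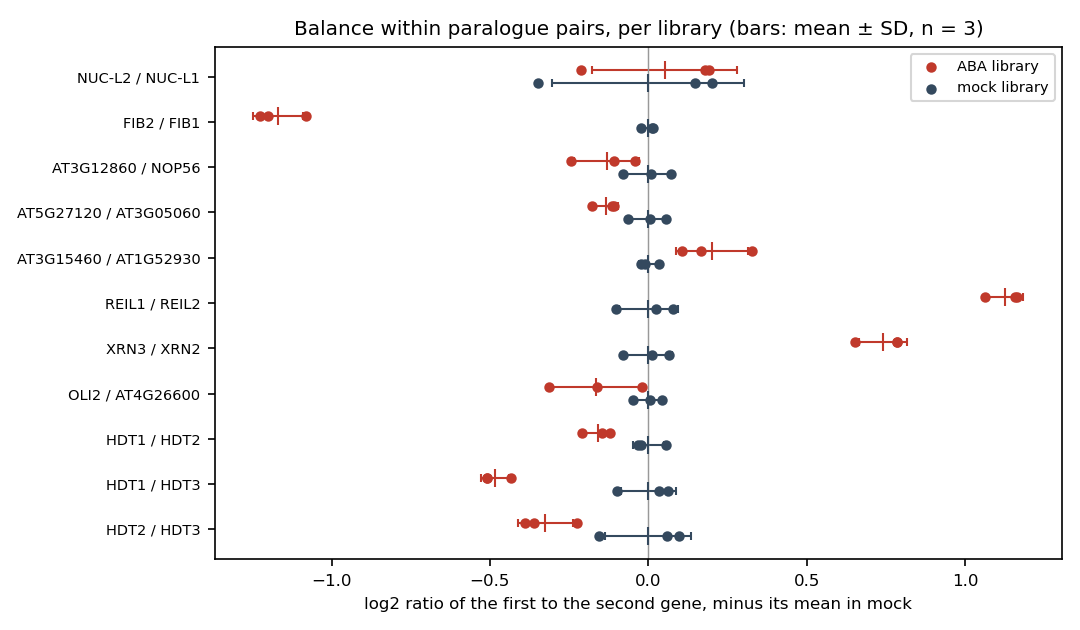
Log2 ratio of the first to the second gene of each pair (CPM per kb) in each library, minus the pair's mean in mock, with mean ± SD over 3 libraries; ABA is drawn above mock. The FIB2/FIB1 ratio lies about 1.17 below its mock mean in ABA, REIL1/REIL2 1.13 and XRN3/XRN2 0.74 above, and the rows of NUC-L2/NUC-L1, AT3G12860/NOP56 and OLI2/AT4G26600 overlap between the groups.

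Genes of the same pathway outside the list were drawn from separate lists, chosen by locus or product name with earlier results of these data known. The other snoRNP core genes had 4 of 5 tested genes lower and 0 higher, with a median of -1.02; among all tested loci 29.4% were lower and 31.0% higher, with a median of -0.01. Among them AT5G20160, of the L7Ae family to which a core protein of box C/D snoRNPs belongs, had 42.0, 35.5 and 36.2 CPM in the ABA libraries, against 126, 111 and 118 CPM in the mock libraries, and fell by 1.64 ± 0.083 (edgeR adjusted p = 5.43e-07). AT4G12600 and AT4G22380 of the same family fell by 1.02 ± 0.071 (adjusted p = 3.95e-06) and 1.04 ± 0.086 (adjusted p = 1.09e-05). The GAR1-like gene AT3G03920 fell by 0.73 ± 0.080, and its scarce relative AT5G18180, at 16, 16 and 9 counts in ABA and 20, 16 and 18 counts in mock, was not called. The list of RNA polymerase I genes had 9 of 11 tested genes lower and 0 higher, with a median of -0.58, beside the same shares of all tested loci. NRPA2 (AT1G29940), its second largest subunit, fell by 0.79 ± 0.081 (adjusted p = 4.03e-05). That list also took in genes by the product name RNA polymerase I-associated factor PAF67. Of these AT5G25757 fell by 0.71 ± 0.074 and AT5G25754 by 0.25. Both are in the count and median of the list, though the name alone does not show that they belong to the polymerase.

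The other exosome genes had 8 of 9 tested genes lower, 0 higher and a median of -0.42, where 29.4% of all tested loci were lower and 31.0% higher. AT1G60080 fell most of them, by 1.17 ± 0.093 (adjusted p = 8.79e-06), and CER7 (AT3G60500), known from wax synthesis, fell by 0.54 ± 0.068. The late 60S factors had 6 genes lower and 1 higher of 7, with a median of -0.63, beside the same shares of all tested loci. The midasin-like gene AT1G67120, a large ATPase that strips assembly factors from the 60S subunit, had 57.8, 51.2 and 53.9 CPM in the ABA libraries, against 84.2, 82.1 and 85.3 CPM in the mock libraries, and fell by 0.63 ± 0.064 (adjusted p = 3.95e-05). The gene against that direction, AT3G22980, of the elongation factor G family, rose by 0.33 ± 0.068 (adjusted p = 0.00243); no gene of the list was called higher with library totals. A list drawn by letters in product names, meant for nucleolar, rRNA processing and U3 proteins, had 31 of 45 tested genes lower and 7 higher. Its median was -0.52, beside the same 29.4% and 31.0% of all tested loci. The letters also took in DUT1 (AT3G46940), named as a dUTP pyrophosphatase-like gene, which is among those lower (-0.47). AT1G07840 of the Sas10/Utp3 family fell by 1.08 ± 0.069, AT5G61330 by 1.15 ± 0.074 and AT2G37990, of the RRS1 family, by 1.05 ± 0.076. Of the 7 that rose, 3 share the product name TLD-domain nucleolar protein: AT5G39590 rose by 1.12 ± 0.086, AT2G05590 by 0.85 ± 0.083 and AT5G06260 by 0.51 ± 0.056. The remaining tested gene of that product name, AT4G39870, had a log2 fold change of 0.013 and was not called (adjusted p = 0.913). Apart from the snoRNP core, the medians of these lists lay between -0.63 and -0.42; the difference between lists was not tested.

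Regulators known to act on ribosome genes had 3 of 10 lower, 4 higher and a median of 0.02, beside 29.4% lower and 31.0% higher among all tested loci, so their counts are near the background. S6K2 (AT3G08720), a kinase downstream of TOR, had 47.8, 46.9 and 43.9 CPM in the ABA libraries, against 22.8, 23.0 and 20.3 CPM in the mock libraries, and rose by 1.07 ± 0.073 (edgeR adjusted p = 3.41e-06). The TOR kinase gene (AT1G50030) rose by 0.35 ± 0.070 (adjusted p = 0.00228), and LARP1a (AT5G21160), a binding protein of ribosomal mRNAs, fell by 0.42 ± 0.073 (adjusted p = 0.00101). NAC082 (AT5G09330), a mediator of nucleolar stress, fell by 0.27 ± 0.061. TRB1 to TRB3 bind telomeric repeats: TRB1 was not called, TRB2 rose by 0.31 ± 0.090 and TRB3 fell by 0.31 ± 0.083. TCP20 (AT3G27010), of the family that binds site II, had a log2 fold change of -0.27 ± 0.10 (adjusted p = 0.0506). With library totals 6 regulators were lower and 1, S6K2, was higher, so the calls of the small changes rest on the scaling.

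Ribosome genes are most active in dividing cells, so 6 marker genes of division were read as well. Of these CYCB1;1 was lower (-0.50 ± 0.16; edgeR adjusted p = 0.0269), SYP111, the cytokinesis syntaxin, was higher (0.34 ± 0.11; adjusted p = 0.0275), and 4 were not called. CYCB1;1 held 63, 68 and 86 counts in ABA, against 127, 122 and 104 in mock. Their summed level was 68.6, 83.7 and 89.7 CPM in ABA, against 80.6, 85.2 and 78.2 CPM in mock. The sums overlapped between the groups. Their largest part was SYP111, at 26.2, 32.5 and 36.4 CPM in ABA, against 24.6, 25.3 and 25.4 CPM in mock. Every other marker had a log2 fold change below 0, from -0.50 to -0.02. The unadjusted p of edgeR was below 0.05 for 3 of the 6 markers. The summed level of the 52 genes was 3251, 2894 and 2817 CPM in ABA, against 6187, 5590 and 6010 CPM in mock. ABA replicate 1, the highest of its group in the 52 genes, was the lowest in the summed division markers. With library totals 4 of the 6 markers were called lower and 0 higher, and DESeq2 called 1 and limma-voom 2 of the 6. Their part in the falls described above was not tested.

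**Figure D5:**
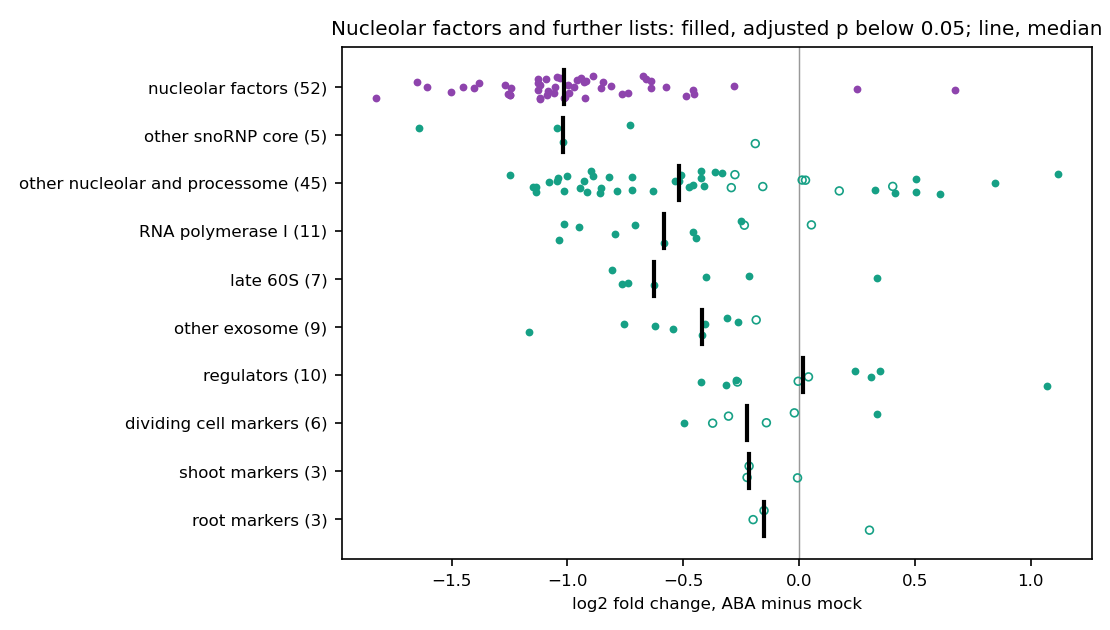
Log2 fold change (ABA minus mock) of the 52 genes and of the tested genes in each further list, with the number of genes in brackets; filled points have an edgeR adjusted p below 0.05, open points do not, and the line is the median. The median is -1.01 in the 52 genes, -1.02 in the other snoRNP core genes, -0.52 in other nucleolar and processome genes, -0.58 in RNA polymerase I genes and 0.02 in the regulators.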

How the data were processed

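Per the labels' protocols, the mRNA library kit keeps strand. The submitters' processing notes name FastQC, STAR, cutadapt and DESeq2, with the build TAIR10. Not given in the sources used here are the counting program, its strand setting and its handling of reads with several matches. Whole-number raw counts per locus were deposited, with no normalization by the authors. Of the table's 9 columns of counts, 6 matched the labels of the ABA and mock samples; the other 3 matched no label and were not used, so iCB was not analysed.

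Loci were kept by filterByExpr (21092 of 37336) and compared with edgeR 4.0.16 (R 4.3.3; TMM scaling, robust quasi-likelihood test, Benjamini-Hochberg adjustment over all tested loci, call at adjusted p below 0.05). Differences are log2 of ABA over mock, with a standard error (SE), and levels are mean ± SD. The SE of a gene is its absolute log2 fold change over the square root of the F of the test. For paralogue ratios the SE came from their variances over the 3 libraries of each group. Over all tested loci the median SE was 0.106. Alternatives were DESeq2 1.42.0, limma-voom (limma 3.58.1), other scalings and filters, the replicate number as a block, and leaving out each library. Paralogue ratios, also computed with 0.5 CPM, used 0.1 CPM as pseudocount. Replicates of a group differed beyond sampling noise (chi-square over degrees of freedom 6.93 to 15.4). Annotation and promoters came from RefSeq TAIR10.1, matched by locus (37051 loci found). The fit was also run on simulated counts in which as many loci were raised as lowered, so that run does not test the scaling.

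The 52 loci and all further lists were chosen with earlier results of these data known. Any of the 52 could be named; from each further list the 3 genes with the smallest adjusted p and up to 3 called against the majority were named. Other genes named from those lists were chosen after their values were seen.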

Additional observations from a re-analysis of the deposited data

How the results depend on the processing

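The 50 falls among the 52 genes were called under every alternative run: DESeq2, limma-voom, relative log expression, upper-quartile and library-total scaling, no filter, a filter of 5 CPM, the replicate block and each library left out. Of the 2 rises, XRN3 lost its call under upper-quartile scaling (0.04) and under library totals (0.02), which leaves 1 gene called higher under each. The median of the 52 was -1.22 with upper-quartile scaling and -1.24 with library totals, since all log2 fold changes moved by -0.21 and -0.23. Library totals gave 9459 loci lower and 4475 higher among all tested loci and upper-quartile factors 9100 lower and 4618 higher, against 6205 lower and 6537 higher with TMM. Leaving out 1 library at a time gave medians of -1.10 to -0.95. Within 150 bases before the start the telo-box share was 13.46% and that of its core 17.31%, against 44.23% and 51.92% in the whole window. The shorter window lacks both the bases after the start and those farthest upstream. Of the 27 genes with a core, 17 had the nearest one beginning after the start. REIL2 had its core 159 bases before the start. The replicate block gave 50 genes lower, 2 higher and 6229 loci lower and 6586 higher among all tested. Same-numbered ABA and mock libraries correlated by 0.066, 0.084 and 0.203 in their deviations, not all over 0.1, so the numbers were not taken as pairs; each library correlated best with its own number. Annotated starts limit the promoter windows, and shared reads limit paralogue ratios.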

Other observations

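AT1G06560, the NOL1/NOP2/sun gene that fell by 0.74 ± 0.080 after ABA, was singled out after its promoter had been read. It has 8 site II matches within 250 bases before its start, and it was the single one of 20184 tested loci with at least 8. The matches alternate in spacing, 23 and then 31 bases apart, so the same pattern comes back every 54 bases. Of the 137 bases that could be compared with the base 54 positions further on, 130 (94.9%) were identical, which makes it a tandem repeat with 2 site II matches in each copy. Its window holds no telo-box core. The sequence shows the 200 bases before the start, RefSeq TAIR10.1 chr1:2007415-2007614 on the plus strand, with the site II matches of either strand in capitals.
AT1G06560: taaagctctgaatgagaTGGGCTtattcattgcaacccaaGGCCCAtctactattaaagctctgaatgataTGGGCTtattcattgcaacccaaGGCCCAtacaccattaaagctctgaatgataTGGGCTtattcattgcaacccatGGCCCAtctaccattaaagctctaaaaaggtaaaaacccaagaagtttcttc
The gene had 17.9, 18.6 and 15.7 CPM in the ABA libraries, against 30.1, 28.9 and 28.3 CPM in the mock libraries, so the ABA and mock libraries did not overlap, and its fall was smaller than the median of the 52 genes. The paralogues OLI2 and AT4G26600, of the same protein family, have 3 site II matches each and fell by 1.61 ± 0.11 and 1.45 ± 0.068.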
